A study of Mus musculus with 48 samples.

Results

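Diacylglycerol kinase inhibitor II (DKI) was compared directly with meclizine in murine striatal progenitor cells that carry mutant huntingtin. All 3 DKI samples and all 3 meclizine samples of the series were used, which is 6 of its 48 samples, and they were chosen by compound only. The cells were STHdhQ111, a conditionally immortalized line with homozygous knock-in of mutant huntingtin, so every sample derives from 1 cell line. Each compound was given at 10 µM for 24 hours in serum-free medium, which was also the condition of the vehicle samples of the same line (Q111SST). The 3 vehicle samples are given beside the results as levels and had no part in the direct contrast. Gene expression was measured by RNA-Seq of polyadenylated RNA, and the values are normalized abundances on the log2 scale, so that a difference of 1 is a doubling. The 3 samples of a compound are labelled with different days or times of collection, so they were collected separately. The labels do not say whether their cultures were started independently. The p-values rest on the spread between samples of the same condition, which may be technical. This spread is pooled over all 16 conditions of the series, so it is not that of the 6 samples alone. In bulk samples a lower RNA level per cell and fewer cells that carry the RNA cannot be told apart.

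DKI is a small molecule that inhibits diacylglycerol kinases, the enzymes that convert the membrane lipid second messenger diacylglycerol into phosphatidic acid. Meclizine is an over-the-counter antihistamine that antagonizes the histamine H1 receptor and is also known to inhibit Pcyt2, the key enzyme of phosphatidylethanolamine synthesis, and to lower mitochondrial respiration. The study had placed both compounds in the same group by their metabolite profiles (Group B), which raises the question of where their transcriptomes differ. Pathways that come up below are sterol synthesis and the amino acid response. Sterol synthesis genes are activated by SREBP factors, which are released from the endoplasmic reticulum when its membrane holds little cholesterol and held there by Insig1 when cholesterol is plentiful. The transcription factor Atf4 is translated when stress kinases phosphorylate eIF2, and it switches on amino acid transporters, serine and asparagine synthesis and the stress factors Ddit3 (CHOP), Trib3 and Atf3.

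Among the 6 samples, DKI replicate 1 stood apart. Over the 13409 genes tested its Euclidean distance was 20.1 and 18.9 to the other DKI samples, which lay 14.5 from each other, and 24.7 to 27.6 to the meclizine samples, which lay 14.1 to 16.4 from each other. DKI replicates 2 and 3 lay 16.2 to 22.4 from the meclizine samples. Calls that were lost without DKI replicate 1 are therefore given with the difference that remained. A fit with fewer samples is also less precise, so a lost call with a similar difference does not show that the difference rested on that sample. The cells were collected on 3 days and at 3 times per day, and day 1 held a meclizine sample but no DKI sample. DKI replicate 1 is labelled as day 3, whereas replicate 1 of 14 of the 16 conditions is labelled as day 1. The label was used as given, and 1329 genes rather than 1087 were called without the collection day in the model. Of the markers of neural progenitors, Vim averaged 15.1 over the 6 samples, Sox4 11.5, Cdh2 10.0 and Sox9 9.21, but Nes averaged 4.86, Sox2 4.76 and Fabp7 0.67. Markers of other cell types ranged widely within each list. Those of striatal neurons averaged from -2.18 (Drd1) to 9.78 (Foxp1), with Bcl11b at 0.18, Ppp1r1b at 1.84 and Map2 at 8.20. Astrocyte markers averaged from -0.96 (Gfap) to 10.3 (Gja1), and oligodendrocyte markers from 0.49 (Mag) to 8.70 (Cspg4) and 8.92 (Pdgfra). Microglial markers averaged from -2.18 (Aif1) and -2.13 (P2ry12) to 6.25 (Cd68), 6.97 (Tmem119) and 10.2 (Ptprc), and endothelial markers from -2.34 (Emcn) and 0.22 (Cdh5) to 8.40 (Pecam1).

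The compounds differed in 1087 of 13409 genes (8.11%) at an adjusted p under 0.05 by limma with Benjamini-Hochberg adjustment, in a model of all 16 conditions and the collection day. Of these, 577 (4.30%) were higher in DKI and 510 (3.80%) were higher in meclizine. Most differences were small, with a median size of 0.28 on the log2 scale, and 82 called genes differed by over 0.5 and 5 by over 1. In 1015 of the 1087 genes the 3 DKI values did not overlap the 3 meclizine values, whereas 26.0% of all genes tested had no overlap. The day 2 and the day 3 differences both had the direction of the fit in 1061 of the 1087 and in 58.4% of all genes tested. The difference between DKI replicate 1 and meclizine replicate 3, which carry the same day and time of collection, had it in 1085 of the 1087 and in 79.9% of all. The called genes were chosen on these same samples, so these counts are a description. An unadjusted p under 0.05 was reached by 2901 genes (21.6%), or by 1821 (13.6%) without DKI replicate 1. Against vehicle, 5673 genes (42.3%) were called for DKI, 20.4% of all tested higher and 21.9% lower, and 3589 (26.8%) for meclizine, 13.1% higher and 13.6% lower, in comparisons that share their vehicle samples. The number of calls between the compounds fell to 316 (2.36%) without DKI replicate 1, to 583 without meclizine replicate 2 and to 709 without meclizine replicate 3. A total of 237 genes were called in each of the 6 fits that left out 1 of the 6 samples, 116 of them higher in DKI and 121 higher in meclizine. In the plot of difference against level, the sterol enzymes form the lower edge of the cloud at high levels, while the amino acid genes lie mostly above 0.

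**Figure D1:**
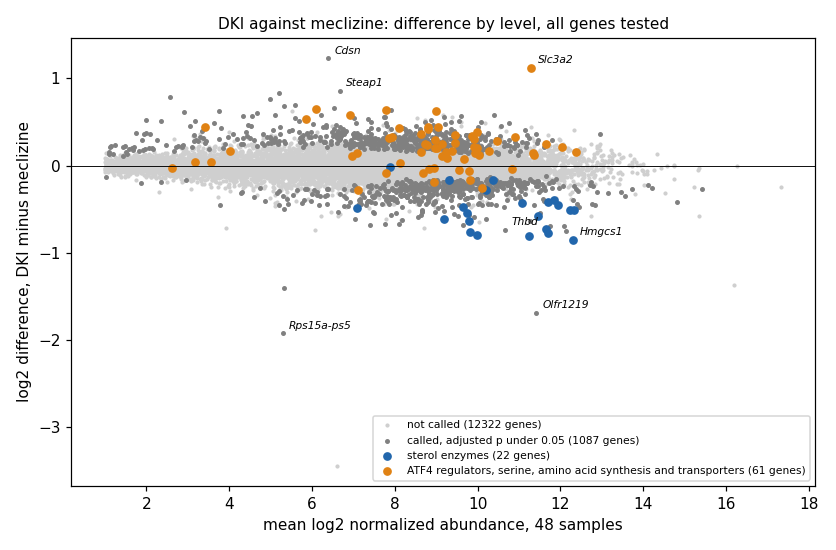
Each point is 1 of 13409 genes, with the mean log2 normalized abundance over 48 samples on the horizontal axis and the log2 difference of DKI minus meclizine on the vertical axis. Dark grey points are the 1087 called genes, blue points the 22 sterol enzymes and orange points 61 genes of the ATF4 and amino acid lists. Blue points lie at or below 0, down to -0.85 for Hmgcs1, and Slc3a2 is the highest orange point at 1.13.

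Of the 32 gene lists of pathways, those of sterol synthesis held the highest shares of calls: 19 of the 22 enzymes were called, and every one of these was lower in DKI, which also lay below vehicle, while meclizine lay near vehicle. The promoters of 4 of these enzymes that are described below are shown for the elements through which sterol genes are known to be controlled, namely CCAAT boxes, which are bound by NF-Y, and the sterol response element, which is bound by SREBP. They come from RefSeq (GRCm38.p6) and run from 250 bases before to 50 bases after the annotated start, in the direction of the gene. Capitals mark a CCAAT box (CCAAT, here as its complement ATTGG) or the sterol response element (TCACNCCAC), both searched on both strands. The windows are those of Hmgcs1 (chr13:119690101-119690400, plus strand), Idi1 (chr13:8885356-8885655, plus strand), Lss (chr10:76531355-76531654, plus strand) and Hsd17b7 (chr1:169969156-169969455, minus strand).
Hmgcs1: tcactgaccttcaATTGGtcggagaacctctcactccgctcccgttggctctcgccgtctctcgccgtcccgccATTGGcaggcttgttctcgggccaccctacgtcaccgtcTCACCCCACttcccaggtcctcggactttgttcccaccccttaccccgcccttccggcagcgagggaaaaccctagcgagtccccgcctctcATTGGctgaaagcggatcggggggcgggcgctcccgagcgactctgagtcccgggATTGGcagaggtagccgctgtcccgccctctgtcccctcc
Idi1: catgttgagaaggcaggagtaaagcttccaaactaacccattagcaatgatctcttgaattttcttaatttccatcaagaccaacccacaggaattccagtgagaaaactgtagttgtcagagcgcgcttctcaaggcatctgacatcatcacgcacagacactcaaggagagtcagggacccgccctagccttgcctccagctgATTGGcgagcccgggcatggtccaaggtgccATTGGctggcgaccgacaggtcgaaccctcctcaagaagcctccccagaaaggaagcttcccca
Lss: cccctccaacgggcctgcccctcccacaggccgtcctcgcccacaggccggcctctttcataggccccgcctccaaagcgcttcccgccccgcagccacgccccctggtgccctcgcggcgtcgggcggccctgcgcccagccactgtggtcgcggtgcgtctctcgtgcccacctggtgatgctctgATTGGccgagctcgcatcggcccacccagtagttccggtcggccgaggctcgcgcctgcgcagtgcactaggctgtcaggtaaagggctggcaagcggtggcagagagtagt
Hsd17b7: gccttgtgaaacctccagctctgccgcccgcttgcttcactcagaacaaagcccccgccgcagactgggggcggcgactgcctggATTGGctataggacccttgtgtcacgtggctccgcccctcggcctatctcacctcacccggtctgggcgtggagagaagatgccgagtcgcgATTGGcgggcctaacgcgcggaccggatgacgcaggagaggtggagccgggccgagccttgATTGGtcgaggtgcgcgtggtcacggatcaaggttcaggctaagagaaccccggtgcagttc
The Hmgcs1 window held 4 CCAAT boxes and 1 sterol response element, which begins 137 bases before the start. Idi1 held 2 CCAAT boxes, Lss 1 and Hsd17b7 3. The window of Acat2, also described below, was searched and held neither element. It is not shown, so the 4 windows shown are ones with a match. The Idi1 window also held the C/EBP-ATF composite site that is described below with the ATF4 genes, not put in capitals here, which was found in 1 of 17 sterol enzymes (5.88%) and in 2.81% of all. A window was found for 17 of the 22 enzymes, and 16 of these (94.1%) held a CCAAT box, against 43.0% of the 10081 tested genes with a window. Acat2, which was called, was the enzyme without it, and Ggps1, which was not called, held it. The box was found in 46.8% of genes called higher in meclizine and in 41.9% of those called higher in DKI. The sterol response element was found in 1 of the 17 (5.88%), against 1.40% of all. Its shares among called genes were 2.58% (higher in meclizine) and 1.32% (higher in DKI). A match of letters is not evidence of binding, and a window without one says only that these letters are not in it.

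The mevalonate branch makes the isoprenoid units of cholesterol from acetyl-CoA. In this list 9 of 10 enzymes were lower in DKI and the median difference was -0.56, against -0.0016 over all genes tested, and the same 9 of 10 was the count without DKI replicate 1 (background 1.20%). Hmgcs1 (ENSMUSG00000093930, GRCm38 chromosome 13, 119690379 to 119708260), which makes HMG-CoA, measured 11.40, 11.27 and 11.21 in DKI, 11.87, 12.41 and 12.14 in meclizine and 12.40, 12.40 and 12.32 in vehicle. All DKI values thus lay below all others, and meclizine was 1.80-fold higher than DKI (log2 difference -0.85, SE 0.08, adjusted p = 7.00e-09). Acat2, which joins acetyl-CoA units at the first step, measured 10.43, 10.46 and 10.32 in DKI and 10.96, 11.49 and 11.18 in meclizine, where vehicle measured 11.17 to 11.21 (difference -0.81, SE 0.09). Mvd and Idi1, which form and isomerize isopentenyl pyrophosphate, differed by -0.80 (SE 0.11) and -0.77 (SE 0.08), and Mvk, mevalonate kinase, by -0.54 (SE 0.08). The exception was Ggps1, which leads to geranylgeranyl groups of proteins rather than to sterols. Named here after its values were seen, it measured 7.94, 7.93 and 7.84 in DKI and 7.94, 7.97 and 7.84 in meclizine.

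In the branch from squalene to cholesterol, 10 of 12 enzymes were lower in DKI and the median difference was -0.47. The count was 9 of 12 without DKI replicate 1. Hsd17b7, a ketoreductase of this branch, measured 9.00, 8.82 and 8.79 in DKI and 9.40, 9.94 and 9.57 in meclizine, with no overlap (difference -0.77, SE 0.09, adjusted p = 3.40e-07). Lss, which closes the ring of lanosterol, measured 11.17, 10.92 and 11.00 in DKI and 11.52, 12.01 and 11.73 in meclizine (difference -0.72, SE 0.10). Nsdhl differed by -0.64 (SE 0.09), Dhcr7, which completes cholesterol, by -0.61 (SE 0.09), Cyp51, the lanosterol demethylase, by -0.51 (SE 0.10) and Sqle, the squalene oxidase, by -0.42 (SE 0.07). These were called in each of the 6 fits that left out a sample, as were 15 of the 22 enzymes of both lists. Those fits keep the spread pooled over all conditions. With only the 6 samples and no collection day in the fit, Hsd17b7, Lss, Nsdhl and Dhcr7 were called, but Cyp51 and Sqle were not. With the collection day none of them was called, whereas Hmgcs1, Acat2 and Idi1 of the mevalonate list were. Tm7sf2 measured 5.96, 6.45 and 6.41 in DKI and 6.66, 7.02 and 6.62 in meclizine. Its difference of -0.48 was not called without DKI replicate 1 (-0.33, adjusted p = 0.16), and its locus overlaps Vps51 on the same strand. Against vehicle, DKI was called lower in 9 of 10 mevalonate enzymes (median -0.69) and in 9 of 12 later enzymes (median -0.42). Meclizine was called lower in 2 of 10 and in 0 of 12, with medians of -0.05 and 0.04. Among all genes tested 21.9% were called lower for DKI and 13.6% for meclizine. Within meclizine, replicate 2 was the highest for most of these enzymes, with a mean over the mevalonate list of 10.85, against 10.45 and 10.60 in replicates 1 and 3, 10.67 to 10.74 in vehicle and 9.97 to 10.17 in DKI.

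**Figure D2:**
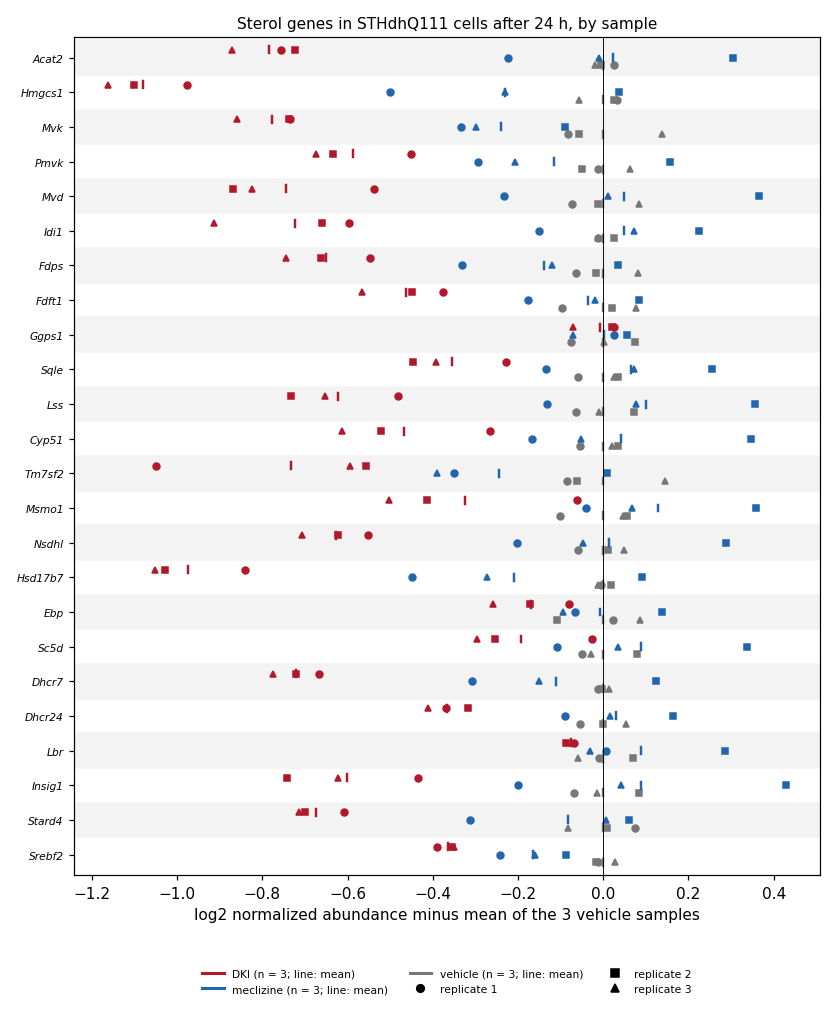
Log2 normalized abundance of 21 sterol enzymes and 3 other sterol genes in each sample, minus the mean of the 3 vehicle samples, with 3 samples per group and a vertical line at each group mean. DKI samples lie left of meclizine samples for nearly all genes, as for Hmgcs1 with DKI at 11.21 to 11.40 and meclizine at 11.87 to 12.41, while Ggps1 shows no separation.

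Of 20 genes of sterol sensing, uptake and efflux, 5 were lower and 1 was higher in DKI (30% called, against 8.11% of all genes). The lower genes included other well-known SREBP targets. Insig1, the retention protein of SREBP, measured 11.62, 11.31 and 11.43 in DKI and 11.85, 12.48 and 12.10 in meclizine (difference -0.70, SE 0.10, adjusted p = 2.23e-05). Its groups were fully separated, as were those of Stard4, a cytosolic sterol carrier, with 9.40, 9.31 and 9.30 against 9.70, 10.07 and 10.02 (difference -0.59, SE 0.07). Smaller differences were found for Lrp8 (-0.32, SE 0.10, overlapping groups) and the lipoprotein receptor Scarb1 (-0.27, SE 0.06). Soat1, which esterifies cholesterol for storage, was higher in DKI by 0.24 (SE 0.07), but neither it nor Lrp8 nor Scarb1 was called without DKI replicate 1 (adjusted p = 0.21, 0.078 and 0.055). Their differences were then 0.21, -0.36 and -0.22. Srebf2, the gene of the main sterol SREBP, measured 12.43, 12.46 and 12.47 in DKI and 12.57, 12.73 and 12.66 in meclizine. The values did not overlap, but the difference of -0.20 did not pass the test (adjusted p = 0.0639, 95% interval -0.34 to -0.06).

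Of 16 genes of fatty acid synthesis and desaturation, 6 were lower and 2 higher in DKI (50% called, against 8.11% of all genes, median -0.18). Acss2 and Acly, which supply cytosolic acetyl-CoA, were lower in DKI by 0.67 (SE 0.11) and by 0.48 (SE 0.07). Acss2 measured 6.83, 7.05 and 6.79 in DKI and 7.35, 7.82 and 7.50 in meclizine. Acly measured 11.93, 11.98 and 11.94 in DKI and 12.25, 12.61 and 12.43 in meclizine, so neither overlapped. The stearoyl-CoA desaturases Scd1 and Scd2 differed by -0.39 (SE 0.07) and -0.41 (SE 0.09), and the elongase Elovl6 by -0.36 (SE 0.07). Scd2 was not called without DKI replicate 1 (-0.35, adjusted p = 0.057). Without meclizine replicate 2 neither Scd2 (-0.26, adjusted p = 0.086) nor Elovl6 (-0.23, adjusted p = 0.055) was called. Fads3, a desaturase relative, went the other way with 11.07, 10.73 and 10.84 in DKI and 10.61, 10.58 and 10.54 in meclizine (difference 0.30, SE 0.07), and was likewise not called without DKI replicate 1 (0.20, adjusted p = 0.092).

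Pcyt2, whose enzyme is the known target of meclizine in phosphatidylethanolamine synthesis, was lower in DKI. It measured 9.23, 9.24 and 9.36 in DKI, 9.56, 9.89 and 9.70 in meclizine and 9.57, 9.76 and 9.79 in vehicle, so that meclizine overlapped vehicle and DKI lay below both (difference -0.44, SE 0.09, adjusted p = 0.00194). Of the 14 genes of phosphatidylethanolamine and phosphatidylcholine synthesis, 3 were lower and 2 higher in DKI (35.7% called, against 8.11% of all genes, median -0.05). The others lower in DKI were Pcyt1a and Pcyt1b, which encode the corresponding enzymes for choline, with differences of -0.26 (SE 0.05) and -0.37 (SE 0.08). Those higher were Chka, choline kinase (0.41, SE 0.12), and Lpcat1, which acylates lysophosphatidylcholine (0.26, SE 0.07). Chka was not called without DKI replicate 1 (0.31, adjusted p = 0.22).

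The genes of the nominal targets of the compounds and of diacylglycerol handling form short lists. Their counts stand beside the 8.11% of all genes tested that were called. Of 6 diacylglycerol kinase genes tested, 1 was called: Dgkh, with 5.43, 5.33 and 5.37 in DKI and 5.03, 5.03 and 5.22 in meclizine (difference 0.28, SE 0.07, adjusted p = 0.0126), which was not called without DKI replicate 1 (0.26, adjusted p = 0.099). Dgka, an isoform that DKI inhibits, measured 6.55, 6.54 and 6.50 in DKI and 6.37, 6.46 and 6.48 in meclizine, with a difference of 0.10 (95% interval -0.10 to 0.29). Dgkz differed by -0.04 (95% interval -0.16 to 0.09). Hrh1, the receptor that meclizine blocks, was near 1.1 in all 6 samples and differed by 0.01 (95% interval -0.06 to 0.08), a sign that turned negative under quantile normalization and without DKI replicate 3 or meclizine replicate 3. In the list of histamine, muscarinic and xenobiotic receptors, limma called 0 of 4 tested genes, with 0 at an unadjusted p under 0.05. Among 20 genes that handle diacylglycerol and phosphatidate, the call was Lpin1, the phosphatidate phosphatase that makes diacylglycerol and is itself an SREBP target. It measured 8.79, 8.68 and 8.66 in DKI and 9.07, 9.46 and 9.17 in meclizine (difference -0.52, SE 0.07, adjusted p = 9.72e-06), with no overlap. Among 14 kinases and exchange factors that respond to diacylglycerol, the call was Prkca, protein kinase C alpha, at -0.29 (SE 0.07), which was not called without DKI replicate 1 (-0.22, adjusted p = 0.11).

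The ATF4 stress programme was raised by both compounds against vehicle, and some of its genes were higher still in DKI. Of 19 ATF4 and CHOP stress regulators, 15 rose against vehicle with DKI and 15 with meclizine, with medians of 1.29 and 1.06, in comparisons that share their vehicle samples. Among all genes tested 20.4% and 13.1% rose. Between the compounds, 4 of 19 were higher in DKI and 0 were lower (median 0.20, against a background of 4.30% higher in DKI). Without DKI replicate 1 the count was 1 of 19, against a background of 1.16%. Atf4 measured 12.45, 12.02 and 12.23 in DKI, 12.18, 12.07 and 12.11 in meclizine and 10.81 to 10.97 in vehicle. The compounds overlapped, and the difference of 0.12 did not pass the test (adjusted p = 0.496, 95% interval -0.07 to 0.30). Ddit3, which encodes CHOP, differed by 0.35 (adjusted p = 0.0778, 95% interval 0.10 to 0.61) and Trib3, a pseudokinase induced by both factors, by 0.32 (adjusted p = 0.406, 95% interval -0.11 to 0.75). The Ddit3 locus overlaps Mars on the other strand.

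The called regulators were Atf3, Ppp1r15a, Gdf15 and Cebpb. The promoter of Atf3, a stress-induced repressor, is shown as an example with a C/EBP-ATF composite site of the kind that ATF4 is known to bind. Its window is chr1:191183284-191183583 (GRCm38.p6, minus strand, RefSeq), and capitals mark the site (TGATGNAA, here as its complement), whose first base lies 110 bases before the start.
Atf3: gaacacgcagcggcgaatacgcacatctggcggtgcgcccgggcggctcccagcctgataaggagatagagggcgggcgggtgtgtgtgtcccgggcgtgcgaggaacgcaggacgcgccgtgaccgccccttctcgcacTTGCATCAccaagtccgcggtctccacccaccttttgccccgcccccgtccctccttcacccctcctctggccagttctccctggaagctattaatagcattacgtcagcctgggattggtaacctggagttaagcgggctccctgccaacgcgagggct
This site was found in 10 of the 50 genes with a window (20.0%) among the 61 genes of the ATF4, serine, amino acid synthesis and transporter lists, against 2.81% of all tested genes with a window. The share was 4.86% of genes called higher in DKI and 2.84% of those called higher in meclizine. The windows of Ppp1r15a, Gdf15, Cebpb and Slc3a2 did not hold it. Those of Asns, Trib3 and Slc7a11, which were not called, did, as did that of Slc1a4, which was called. Atf3 measured 9.47, 8.95 and 9.27 in DKI, 8.53, 8.57 and 8.68 in meclizine and 7.06 to 7.24 in vehicle. The lowest DKI value thus lay above the highest meclizine value, and the difference was 0.64 (SE 0.14, adjusted p = 0.00289), or 0.52 without DKI replicate 1 (adjusted p = 0.055). Ppp1r15a (GADD34), which recruits a phosphatase to eIF2, measured 10.82, 10.31 and 10.56 in DKI and 10.03, 9.79 and 9.98 in meclizine (difference 0.63, SE 0.12, adjusted p = 0.000848). It was called also without DKI replicate 1 (0.50, adjusted p = 0.025). Gdf15, a secreted stress cytokine, differed by 0.53 (SE 0.14) and Cebpb by 0.44 (SE 0.13), and neither was called without DKI replicate 1 (0.48 and 0.40, adjusted p = 0.11 and 0.16). Cebpb fell further without meclizine replicate 2 (0.27, adjusted p = 0.28) and was called in 2 of the 6 fits that left out a sample, as was Gdf15.

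Amino acid transporters had the largest median difference of the ATF4-related lists. Of 15 transporter genes, 5 were higher in DKI (33.3%, against 4.30% of all genes) and 0 were lower, with a median of 0.28. In 11 of 15 all DKI values lay above all meclizine values, against 13.2% of all genes. The calls were 2 of 15 without DKI replicate 1. Slc3a2 (ENSMUSG00000010095, GRCm38 chromosome 19, 8706882 to 8723369), the CD98 heavy chain that carries several transporters to the membrane, measured 13.53, 12.83 and 12.99 in DKI, 12.24, 11.79 and 11.95 in meclizine and 10.82 to 10.85 in vehicle. The 3 groups were thus fully separated, and DKI was 2.18-fold above meclizine (log2 difference 1.13, SE 0.15, adjusted p = 4.73e-06), or 0.92 on the log2 scale without DKI replicate 1 (adjusted p = 0.00014). With only the 6 samples in the fit, Slc3a2 was called without the collection day but not with it. Slc7a11, which pairs with Slc3a2 to import cystine, rose further against vehicle with each compound, by 3.09 for DKI and 2.51 for meclizine. Its values were 9.66, 8.96 and 9.18 in DKI and 8.83, 8.45 and 8.78 in meclizine, and although they did not overlap the difference of 0.58 did not pass the test (adjusted p = 0.123, 95% interval 0.11 to 1.05). Slc7a3, a carrier of cationic amino acids, differed by 0.45 (SE 0.11) and was also called without DKI replicate 1 (adjusted p = 0.048). Slc6a9, the glycine transporter, Slc38a1, a glutamine carrier, and Slc1a4, a neutral amino acid carrier, differed by 0.38, 0.36 and 0.29 and were not called without that sample (0.28, 0.23 and 0.18, adjusted p = 0.32, 0.36 and 0.36). Slc6a9 was also lost without meclizine replicate 2 (0.25, adjusted p = 0.31).

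Enzymes of amino acid and serine synthesis had smaller differences, whose calls were lost without DKI replicate 1. Of 14 serine and folate one-carbon enzymes 3 were higher in DKI, and of 13 amino acid synthesis genes 3 were higher and 1, Oat, was lower. These were 21.4% and 30.8% of the lists, against 8.11% of all genes. Without DKI replicate 1 limma called 0 of 14 and 0 of 13, with 4 and 4 genes at an unadjusted p under 0.05. Cth, which makes cysteine from cystathionine, measured 8.12, 7.68 and 7.88 in DKI, 7.38, 6.98 and 7.37 in meclizine and 5.48 to 5.67 in vehicle (difference 0.65, SE 0.16, adjusted p = 0.00736). DKI replicate 1 was its highest sample, and the difference without it was 0.53 (adjusted p = 0.099). Gpt2, a mitochondrial alanine aminotransferase, differed by 0.43 (SE 0.10), Psph, the last enzyme of serine synthesis, by 0.44 (SE 0.11), Shmt2, the mitochondrial enzyme that splits serine, by 0.33 (SE 0.10) and Aldh18a1, which starts proline synthesis, by 0.31 (SE 0.08). Without DKI replicate 1 these differences were 0.37, 0.30, 0.24 and 0.20, with adjusted p from 0.058 to 0.31. Oat, ornithine aminotransferase, differed by -0.17, or by -0.10 without meclizine replicate 2 (adjusted p = 0.37). Phgdh, the first enzyme of serine synthesis, and Asns, asparagine synthetase, rose against vehicle by 0.90 and 1.65 with DKI and by 0.66 and 1.44 with meclizine. Between the compounds they differed by 0.25 (adjusted p = 0.104, 95% interval 0.05 to 0.44) and 0.22 (adjusted p = 0.249, 95% interval -0.01 to 0.44), with overlapping values.

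**Figure D3:**
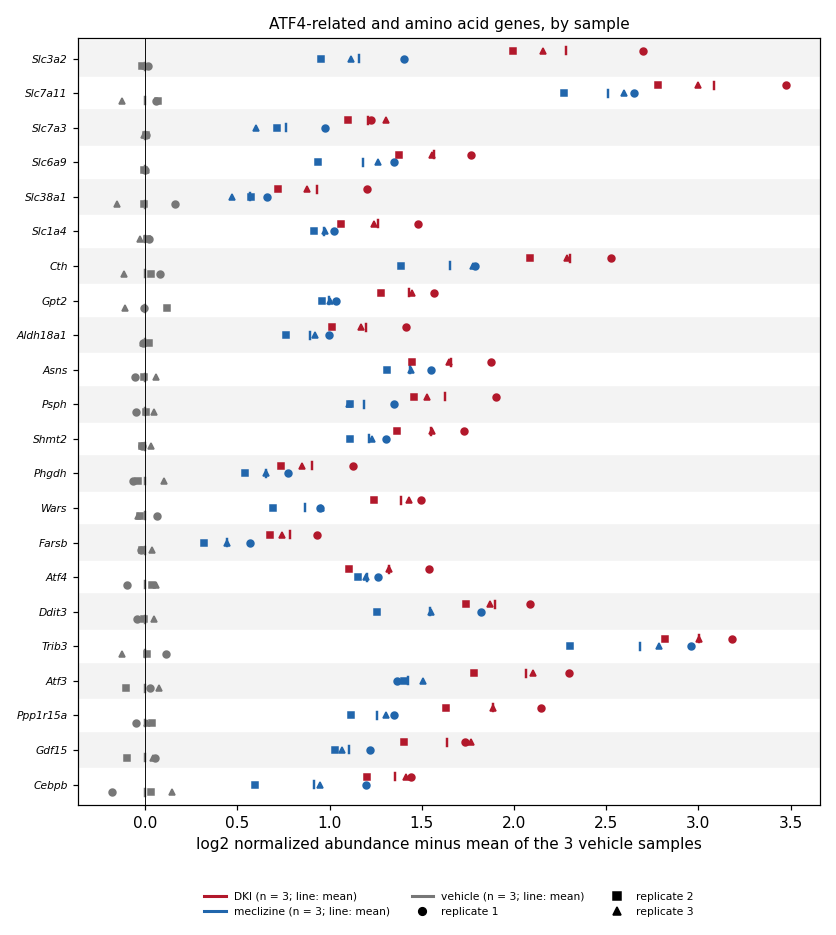
Log2 normalized abundance of 22 ATF4-related and amino acid genes in each sample, minus the mean of the 3 vehicle samples, with 3 samples per group and a vertical line at each group mean. Both compounds lie right of vehicle, DKI replicate 1 is the right-most sample for most genes, and the groups are separated for Slc3a2 (12.83 to 13.53 in DKI, 11.79 to 12.24 in meclizine) but overlap for Atf4.

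Cytosolic tRNA synthetases, which charge tRNAs with amino acids, rose against vehicle in 17 of 20 genes with DKI and in 16 of 20 with meclizine. Among all genes tested 20.4% and 13.1% rose. Between the compounds 2 of 20 were higher in DKI (10%, against 4.30% of all genes), namely Wars and Farsb. Both were called also without DKI replicate 1. Wars, tryptophanyl-tRNA synthetase, measured 10.11, 9.85 and 10.04 in DKI and 9.56, 9.31 and 9.57 in meclizine (difference 0.52, SE 0.09, adjusted p = 0.00017). Farsb, a subunit of the phenylalanine enzyme, measured 9.83, 9.58 and 9.64 in DKI and 9.47, 9.22 and 9.34 in meclizine (difference 0.34, SE 0.06). Neither overlapped. Of 21 endoplasmic reticulum chaperones, 2 were higher in DKI (9.52%, against 4.30% of all genes). Hspa5 (BiP), the main chaperone there, measured 14.03, 13.53 and 13.54 in DKI and 13.37, 13.38 and 13.27 in meclizine. The single high sample was DKI replicate 1, and the difference of 0.36 (SE 0.09) became 0.19 without it (adjusted p = 0.18). Hyou1, a second chaperone, did likewise (0.31, and 0.19 without that sample). The list of 17 cytosolic heat shock genes also holds the mitochondrial chaperonin Hspd1, which was its 1 member higher in DKI (0.29, SE 0.07). Its 2 lower members were Bag3 (-0.23, SE 0.07) and Hspa1b (-0.36, SE 0.09), whose reads are hard to tell from those of its near-identical copy Hspa1a. These 3 calls were 17.6% of the list, against 8.11% of all genes. The 3 differences were 0.23, -0.18 and -0.23 without DKI replicate 1. Without DKI replicate 1 limma called 0 of these 17 and 0 of the 21 chaperones, with 5 and 2 at an unadjusted p under 0.05.

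Both compounds are of interest for energy metabolism, and here 1 gene of the respiratory chain was called. Limma called 0 of 34 identifiers of complex I subunits (2 at an unadjusted p under 0.05, a smaller share than the 21.6% of all genes) and 0 of 13 mitochondrially encoded genes (2 at an unadjusted p under 0.05). Of 36 genes of complexes II to V and cytochrome c, 1 was called (2.78%, against 8.11% of all genes). It was Cycs, cytochrome c, with 9.77, 9.70 and 9.55 in DKI and 9.41, 9.35 and 9.36 in meclizine (difference 0.30, SE 0.09). Cycs was not called without DKI replicate 1 (0.25, adjusted p = 0.18). Glycolysis was lower in DKI in 5 of 22 genes (22.7%, against 3.80% of all genes, median -0.15). In 10 of 22 all DKI values lay below all meclizine values, against 12.9% of all genes. Hk1, a hexokinase, measured 10.41, 10.58 and 10.47 in DKI and 10.84, 10.95 and 10.81 in meclizine (difference -0.38, SE 0.07, adjusted p = 0.00111), and was the one called without DKI replicate 1 (-0.34, adjusted p = 0.018). Pfkp, Pfkm, Pfkfb4 and Pkm, which act at the phosphofructokinase and pyruvate kinase steps, differed by -0.33, -0.25, -0.30 and -0.26, or by -0.25, -0.18, -0.23 and -0.20 without DKI replicate 1. The glucose carrier gene Slc2a1 rose against vehicle with both compounds and differed by -0.13 between them (adjusted p = 0.527, 95% interval -0.35 to 0.09).

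Of 19 targets of the hypoxia-inducible factor, 2 were lower in DKI: Bnip3, a mitophagy receptor (-0.45, SE 0.12), and Pdk1, which shuts pyruvate out of mitochondrial oxidation (-0.39, SE 0.10). Neither was called without DKI replicate 1 (-0.40 and -0.35, adjusted p = 0.13 and 0.086). Bnip3 moved further without meclizine replicate 2 (-0.27, adjusted p = 0.25). In the glucose-sensing Mondo axis 3 of 6 genes were higher in DKI (50%, against 4.30% of all genes). Txnip, an inhibitor of glucose uptake, measured 9.61, 9.89 and 9.70 in DKI, 9.16, 9.73 and 9.22 in meclizine and 10.55 to 10.68 in vehicle. Meclizine replicate 2 lay within the DKI range, and the difference was 0.36 (SE 0.11, adjusted p = 0.0316), or 0.42 without DKI replicate 1 (adjusted p = 0.051) and 0.55 without meclizine replicate 2 (adjusted p = 0.00155). Arrdc4, its relative, and Mlx, the partner of the Mondo factors, differed by 0.29 (SE 0.09) and 0.24 (SE 0.06), and were not called without DKI replicate 1 (0.26 and 0.18, adjusted p = 0.23 and 0.14).

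Among lysosomal and autophagy genes the call was a subunit of the lysosomal proton pump. Of 31 lysosomal genes, 21 rose against vehicle with DKI and 22 with meclizine, where 20.4% and 13.1% of all genes rose. Between the compounds limma called 0 of 31 (4 at an unadjusted p under 0.05, median -0.0037). In the vacuolar ATPase, the proton pump of the lysosome, 1 of 16 subunits was called (6.25%, against 8.11% of all genes). This was Atp6v1a (-0.21, SE 0.05), which was not called without DKI replicate 1 (-0.20, adjusted p = 0.055). Of 32 autophagy genes limma called 0, with 11 at an unadjusted p under 0.05, a larger share than the 21.6% of all genes. Without DKI replicate 1 it was 5 of 32, against 13.6% of all genes. Map1lc3b, the gene of LC3B, measured 11.02, 10.92 and 10.86 in DKI and 10.98, 10.88 and 10.91 in meclizine. These values overlapped almost entirely, with a difference of 0.01 (95% interval -0.10 to 0.12) whose sign turned negative without DKI replicate 1 or meclizine replicate 2. Htt, the huntingtin gene, measured 7.56, 7.74 and 7.77 in DKI and 7.71, 7.89 and 7.81 in meclizine, with a difference of -0.10 (adjusted p = 0.472, 95% interval -0.26 to 0.05).

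Immediate-early and ERK feedback genes report on growth factor signalling, and 7 of 24 were higher and 1 lower in DKI (median 0.23). This was 33.3% of the list, against 8.11% of all genes. Dusp4, an ERK phosphatase, measured 6.54, 5.93 and 6.36 in DKI and 5.71, 5.81 and 5.57 in meclizine (difference 0.58, SE 0.16, adjusted p = 0.0189). Fosl1, a component of the AP-1 factor, measured 8.75, 7.97 and 8.24 in DKI and 7.80, 7.97 and 7.50 in meclizine (difference 0.56, SE 0.14), so that DKI replicate 2 equalled meclizine replicate 2 to the second decimal. Dusp6 (0.47), Spry1 (0.44), Myc (0.40) and Ier3 (0.38) were the other named members higher in DKI. Without DKI replicate 1 the differences of these 6 genes ranged from 0.25 (Ier3) to 0.45 (Dusp4), with Fosl1 at 0.35 (adjusted p = 0.17). Within DKI the list averaged 7.59, 7.21 and 7.34, and within meclizine 7.18, 7.33 and 6.96, so the samples of the compounds overlapped. Without DKI replicate 1 the counts were 0 higher and 1 lower, with 8 at an unadjusted p under 0.05. On day 2 alone, when DKI replicate 2 and meclizine replicate 2 were collected, 5 of the 24 genes were higher in DKI.

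DNA replication and mitosis genes fell against vehicle with both compounds, 23 of 30 with DKI and 21 of 30 with meclizine, where 21.9% and 13.6% of all genes fell. Between the compounds 1 of 30 was lower in DKI (3.33%, against 3.80% of all genes). It was the mitotic cyclin Ccnb2 (-0.22, SE 0.06), whose values overlapped. Of 18 p53 targets 1 was higher in DKI (5.56%, against 4.30% of all genes), the nuclease gene Aen (0.33, SE 0.08). Cdkn1a, the cell cycle inhibitor p21, differed by 0.13 (adjusted p = 0.549, 95% interval -0.10 to 0.36). In the NRF2 antioxidant response 2 of 17 genes were higher and 1 lower (17.6% called, against 8.11% of all genes). Hmox1, heme oxygenase, measured 11.52, 10.94 and 11.28 in DKI and 11.00, 10.55 and 10.68 in meclizine (difference 0.50, SE 0.12), with DKI replicate 2 below meclizine replicate 1. Txnrd1, thioredoxin reductase, differed by 0.26 (SE 0.06) and Pgd, of the pentose phosphate pathway, by -0.17 (SE 0.05). Ccnb2, Aen, Hmox1, Txnrd1 and Pgd were not called without DKI replicate 1 (adjusted p from 0.051 to 0.14), when their differences were -0.21, 0.24, 0.37, 0.21 and -0.17. Limma called 0 of 9 metallothionein and zinc genes, with 2 at an unadjusted p under 0.05. Mt2, a metal-binding metallothionein, had separate groups (11.92, 11.69 and 11.81 against 11.42, 11.15 and 11.54) and a difference of 0.44 that did not pass the test (adjusted p = 0.0829, 95% interval 0.12 to 0.76), and Mt1 differed by 0.17 (adjusted p = 0.423, 95% interval -0.07 to 0.42).

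Interferon-stimulated genes showed how far DKI replicate 1 stood from the rest. All 22 genes of this list had a fitted difference below 0, with a median difference of -0.26, but limma called 0 of 22 (4 at an unadjusted p under 0.05). The list averaged 8.21 in DKI replicate 1, 8.96 and 9.10 in the other DKI samples, 8.93 to 9.17 in meclizine and 9.22 to 9.49 in vehicle. The median difference was -0.01 when DKI replicate 1 was left out. Irf7, an interferon regulator named after its values were seen, measured 8.56 in DKI replicate 1, 9.57 and 9.60 in the other DKI samples and 9.64 to 10.04 in meclizine.

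Of 22 collagen and matrix genes 4 were lower in DKI (18.2%, against 3.80% of all genes). Col6a2 and Col6a1, chains of collagen VI, differed by -0.45 (SE 0.10) and -0.35 (SE 0.09), Col5a1 by -0.28 (SE 0.08) and Aebp1, a collagen-binding protein, by -0.23 (SE 0.07). None of these 4 was called without DKI replicate 1, with differences of -0.31, -0.22, -0.24 and -0.21 and adjusted p from 0.081 to 0.19. Against vehicle 14 of the 22 were called lower for DKI and 12 for meclizine, where 21.9% and 13.6% of all genes were. Of the progenitor markers, Sox9, a transcription factor of glial and neural progenitors, measured 8.74, 9.13 and 9.04 in DKI and 9.52, 9.38 and 9.44 in meclizine (difference -0.48, SE 0.08, adjusted p = 6.22e-05), and it was called also without DKI replicate 1 (-0.36, adjusted p = 0.0032). Vim differed by -0.27 (SE 0.07) but by 0.02 under quantile normalization. Of the markers of other cell types, 1 of 4 astrocyte genes (Gja1, -0.27) and 1 of 4 oligodendrocyte genes (Pdgfra, -0.20) were lower in DKI. Each was 25% of a short list, against 3.80% of all genes. None of Gja1, Pdgfra and Vim was called without DKI replicate 1 (-0.20, -0.16 and -0.20, adjusted p from 0.23 to 0.27). The astrocyte list averaged 4.60 to 4.74 in DKI and 4.75 to 4.77 in meclizine, and the oligodendrocyte list 5.96 to 6.10 and 6.06 to 6.18. Gfap, the defining astrocyte marker, stayed at -0.97 to -0.92 in all 6 samples. Limma called 0 of 4 microglial, 0 of 3 endothelial and 0 of 7 striatal neuron genes, with 1, 0 and 0 at an unadjusted p under 0.05. The part of such cells in the results was not tested.

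**Figure D4:**
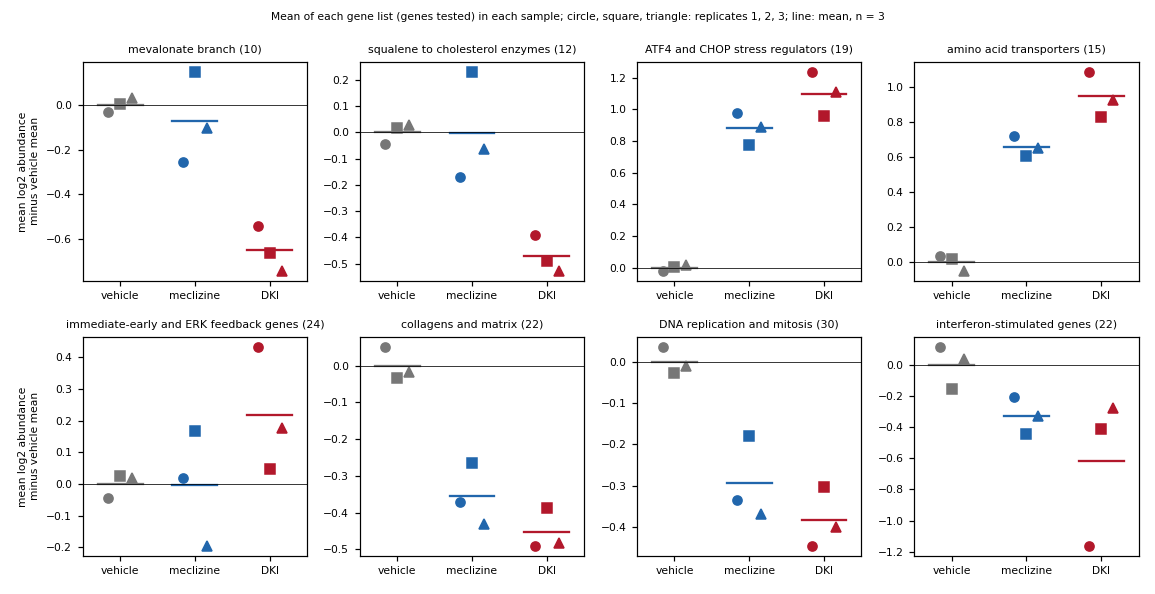
Mean log2 normalized abundance of the tested genes of 8 lists in each sample, minus the mean of the 3 vehicle samples, with 3 samples per group, symbols for replicates and a line at each group mean. The sterol lists are low in all 3 DKI samples (mevalonate list 9.97 to 10.17, against 10.45 to 10.85 in meclizine), whereas the interferon list is far lower in DKI replicate 1 (8.21) than in the other DKI samples (8.96 and 9.10).

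Several genes with large differences belong to none of the lists. Cdsn, which encodes the skin adhesion protein corneodesmosin, measured 9.51, 8.70 and 9.08 in DKI, 7.99, 7.52 and 8.05 in meclizine and 5.44 to 5.69 in vehicle. DKI was thus 2.35-fold above meclizine (log2 difference 1.23, SE 0.24, adjusted p = 0.000962), and meclizine in turn was 2.29 above vehicle on the log2 scale. Steap1, a membrane protein of the STEAP family, was ordered in the same way, with 8.47, 7.97 and 8.10 in DKI, 7.41, 7.09 and 7.46 in meclizine and 6.19 to 6.24 in vehicle (difference 0.86, SE 0.13). Cyb5r1, a cytochrome b5 reductase (0.57, SE 0.11), and Cxadr, the coxsackievirus and adenovirus receptor (0.55, SE 0.12), also lay above vehicle with meclizine and higher with DKI. Slc43a3, a nucleobase transporter, had tight groups of 10.00, 9.99 and 10.13 in DKI and 9.42, 9.49 and 9.55 in meclizine (difference 0.55, SE 0.08, adjusted p = 1.13e-05). All of these were called in each fit that left out a sample, but those fits keep the spread pooled over all conditions. With only the 6 samples in the fit, all of them were called without the collection day. With the collection day Cdsn was called, but Steap1, Cyb5r1, Cxadr and Slc43a3 were not.

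Cxcl1, a neutrophil chemokine, and Ptx3, a secreted pattern recognition protein, were higher in DKI but not called for meclizine against vehicle. Cxcl1 measured 6.97, 6.54 and 6.68 in DKI and 6.06, 6.10 and 6.27 in meclizine (difference 0.58, SE 0.13), and Ptx3 measured 11.72, 11.05 and 11.03 in DKI and 10.93, 10.66 and 10.47 in meclizine (difference 0.58, SE 0.16). Timm8a1, a chaperone of mitochondrial import, differed by 0.63 (SE 0.16). None of these 3 was called without DKI replicate 1 (adjusted p = 0.06, 0.3 and 0.075). Cxcl1 and Timm8a1 then differed by 0.46 and 0.57, and Ptx3 by 0.35.

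On the other side, Thbd, the thrombin receptor thrombomodulin, measured 10.08, 10.30 and 10.27 in DKI, 11.03, 10.95 and 10.88 in meclizine and 10.77 to 10.85 in vehicle. Meclizine was 1.67-fold above DKI (log2 difference -0.74, SE 0.08, adjusted p = 1.88e-07), with vehicle between the compounds. Gas1, a membrane protein that binds hedgehog, measured 11.06, 11.75 and 11.52 in DKI and 12.32, 11.93 and 12.33 in meclizine (difference -0.75, SE 0.12), and Lgr4, a receptor that enhances Wnt signalling, 8.77, 9.17 and 9.01 in DKI and 9.66, 9.58 and 9.77 in meclizine (difference -0.68, SE 0.11). Both were below vehicle with DKI and called without DKI replicate 1. Peg10, an imprinted gene derived from a retrotransposon, fell against vehicle with both compounds and differed by -0.69 (SE 0.15), or by -0.40 without DKI replicate 1 (adjusted p = 0.11). The largest difference of the named genes was that of Olfr1219, annotated as an olfactory receptor, with 11.05, 10.44 and 10.48 in DKI and 12.19, 13.18 and 11.60 in meclizine (-1.69, SE 0.47, adjusted p = 0.0198). Its vehicle samples alone spanned 10.38 to 12.22, and it was called in 3 of the 6 fits that left out a sample.

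The plot of members called by list sets the counts with 6 samples beside those without DKI replicate 1. The sterol lists held 9 and 10 calls with all samples and 9 and 9 without it, while the ATF4 regulators went from 4 to 1, the immediate-early genes from 7 higher to 0 and glycolysis from 5 to 1. Over all genes the share called went from 8.11% to 2.36%.

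**Figure D5:**
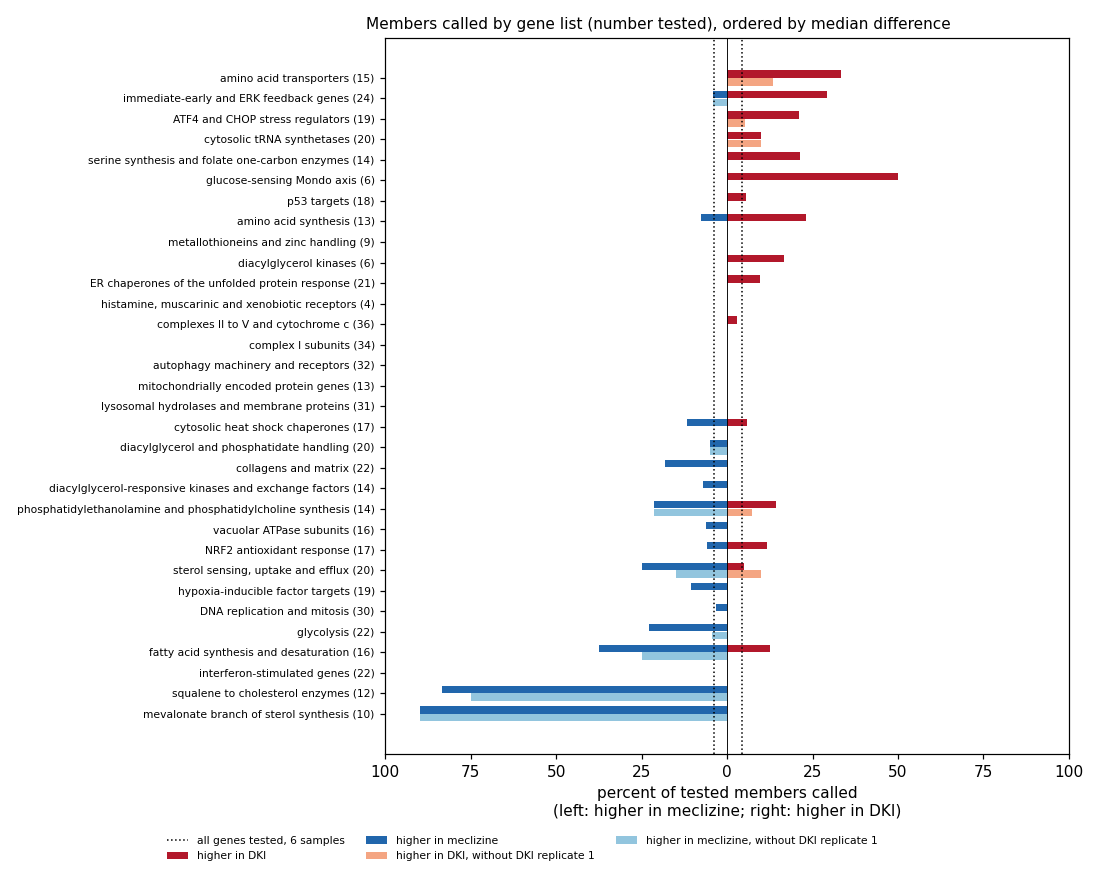
Percent of tested members called in each of 32 gene lists, to the left for members higher in meclizine and to the right for members higher in DKI, with dark bars for all 6 samples and light bars without DKI replicate 1. Dotted lines mark all genes tested with 6 samples (3.80% and 4.30%), and the mevalonate list stands at 90.0% in both fits.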

How the data were processed

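RNA-Seq libraries were made by the authors with a directional poly(A) kit and read as single-end 50 bp reads, which were trimmed with Trimmomatic 0.36, aligned to the GRCm38.p5 transcriptome and quantified with RSEM. The deposited file holds 1 log2 normalized abundance for each of 27281 genes and 48 samples. The scale is read from the values, and the transformation, the counts, the depth and the strand setting are not given in the sources used here, so no counting error is given and the authors' DESeq2 model could not be applied. Low genes hardly vary on this scale, so differences of low genes may be understated. 13409 genes with a symbol and a mean of at least 1 were fitted with limma 3.58.1 in R 4.3.3 (16 conditions, collection day, variance trend, 30 residual degrees of freedom) with two-sided p-values and Benjamini-Hochberg adjustment. A gene was called at an adjusted p under 0.05.

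In 30 simulated data sets of 13409 genes, 90 to 98 of 100 genes planted at 0.5 (log2) and 40 to 64 of 100 at 0.25 were called for DKI against meclizine, with 1 to 15 calls among genes left unchanged. The noise of each gene was normal, drawn independently with the same spread in all conditions, without a day effect or an outlying sample. These counts therefore do not show how the fit behaves with a sample like DKI replicate 1. The 6 samples and the gene lists were chosen with earlier results of these data known. Named genes were the 12 largest differences in each direction (called, mean of at least 6, groups not overlapping), up to 6 called members of each list, and a set of pathway genes named whatever their result. Alternatives were other filters, blocks, scalings, samples and variance settings, and leaving out each sample. Positions are from GENCODE annotation of GRCm38. An exact permutation test of 3 against 3 cannot go below p = 0.1, so none was used. Other compounds, and the metabolite, protein and chromatin data, were not analysed here. Results of some listed genes are not reported here.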

Additional observations from a re-analysis of the deposited data

How the results depend on the processing

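The 1087 calls between DKI and meclizine became 952 to 1329 with other filters on low genes, no collection day term, collection time as a further term, no variance trend, or median or quantile scaling. With only the 6 samples in the fit, 14 genes were called with the collection day (5 higher in DKI and 9 lower, on 2 residual degrees of freedom) and 271 without it (144 higher and 127 lower). Leaving out 1 sample gave 316 to 1549 calls, with 316 without DKI replicate 1, 583 without meclizine replicate 2 and 709 without meclizine replicate 3. Without both DKI replicate 1 and the collection day, an alternative added after the data were seen, 429 were called. For vehicle, leaving out 1 sample gave 4551 to 5509 calls for DKI and 2520 to 3253 for meclizine. Fits with fewer samples also have fewer degrees of freedom, and the cause of these changes was not tested. All 1087 genes kept their direction in each alternative that tested them, except 1 under quantile normalization.

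With a replicate block in place of the collection day, 1171 genes were called. Residuals of DKI and meclizine samples with the same replicate number correlated at 0.188, -0.0268 and 0.203. Samples of different conditions had a mean of -0.055 within a collection day and of 0.0279 between days. So few values cannot decide whether replicate numbers pair the samples, and the main fit did not pair them. Over 116 named genes and their alternatives, 1686 of 2086 results kept direction and call, 387 lost the call, 6 gained it and 7 changed direction, none of which was called. These were Vim (0.0178) and Hrh1 (-0.0033) under quantile normalization, Map1lc3b without DKI replicate 1 and the collection day (-0.0296), Hrh1 without DKI replicate 3 or meclizine replicate 3, and Map1lc3b without DKI replicate 1 or meclizine replicate 2. Over the fits that left out 1 sample, Hrh1 ranged from -0.0176 to 0.0347 and Map1lc3b from -0.0306 to 0.0496. No result could be set against depth, which is unknown.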

Other observations

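Some called genes outside the lists and the naming rule are given here, chosen after their values were seen. Igfbp3, which binds insulin-like growth factors, was raised by meclizine but not called for DKI against vehicle. It measured 8.83, 8.84 and 8.70 in meclizine, 8.20, 8.09 and 8.22 in DKI and 8.00 to 8.05 in vehicle, so its groups were separate with DKI close to vehicle (DKI minus meclizine -0.62, SE 0.09, adjusted p = 1.28e-05 by limma). Acsl3, which activates fatty acids and sits on lipid droplets, measured 9.85, 10.33 and 9.99 in meclizine, 9.43, 9.52 and 9.38 in DKI and 10.06 to 10.21 in vehicle (-0.62, SE 0.08). Cpt1a, the gate of fatty acid entry into mitochondria, fell against vehicle with both compounds and further with DKI (-0.48 between them, SE 0.08). Also lower in DKI were the matrix genes Dpt (-0.61, SE 0.11) and Tgfbi (-0.57, SE 0.12) and the tendon factor Scx (-0.58, SE 0.12), whereas the collagen gene Col8a1 was higher by 0.44.

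In the other direction, Dhrs3, a retinal reductase, measured 6.27, 6.27 and 6.44 in DKI, 5.29, 5.42 and 5.75 in meclizine and 4.92 to 4.98 in vehicle (0.84, SE 0.13, adjusted p = 3.67e-05). Gdnf, a neurotrophic factor known for its action on dopamine neurons, measured 6.66, 6.17 and 6.34 in DKI, 5.67, 5.74 and 5.69 in meclizine and 5.25 to 5.42 in vehicle (0.69, SE 0.10, adjusted p = 2.23e-05). Both were ordered DKI, meclizine, vehicle with no overlap. Atf6, a sensor of the unfolded protein response, was higher in DKI by 0.51 (SE 0.08) and Sphk2, a sphingosine kinase, by 0.46 (SE 0.07). Vcam1, an adhesion molecule, measured 6.42, 7.07 and 7.22 in DKI and 5.95 to 6.44 in meclizine, so that DKI replicate 1 was here the sample nearest to meclizine (0.66, SE 0.16). Rps15a-ps5, annotated as a pseudogene of a ribosomal protein gene whose reads it may share, had the largest called difference towards meclizine (-1.93, SE 0.48), with vehicle from 4.27 to 5.65.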
